A study of Mus musculus with 12 samples.

Results

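The antioxidant enzymes examined here are 10 genes, and every one of them passed the filter on low counts. They were chosen by name as rows of the gene table, with earlier results of these data known. They were 10 of 55471 genes in the table and of 18228 genes tested. Of the members, 5 are counted here as mitochondrial (*Sod2*, *Prdx3*, *Prdx5*, *Txn2* and *Ucp2*) and 5 as cytosolic or peroxisomal (*Sod1*, *Cat*, *Prdx1*, *Gpx1* and *Gpx4*). Products of *Prdx5*, *Gpx1*, *Gpx4* and *Sod1* are found in more than 1 compartment, so each class is also described without them.

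RNA-seq counts came from mouse bone marrow-derived dendritic cells (DCs), grown with GM-CSF from bone marrow of female C57BL/6 mice. All groups carried a retroviral short hairpin RNA (shRNA) and were selected on the human CD8 reporter of its vector. The control hairpin was directed against firefly luciferase (shControl) and the other against *Ppargc1b* (sh*Ppargc1b*), which encodes the transcriptional co-activator PGC-1β, and cells were left unstimulated or given IFN-β for 6 h. Each hairpin was thus sequenced with and without IFN-β, with 3 libraries in each of the 4 groups. The labels do not name the hairpin used against *Ppargc1b*, while the study's text gives its first hairpin as the one used in most experiments. They also do not say whether the 3 libraries of a group came from separate mice or cultures, so p-values measure the spread between these libraries only.

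Mitochondrial respiration leaks superoxide, which superoxide dismutases turn into hydrogen peroxide. Peroxiredoxins, glutathione peroxidases and catalase then remove the peroxide, with electrons supplied to peroxiredoxins by thioredoxins and to glutathione peroxidases by glutathione. Several of these enzymes exist as pairs encoded by separate genes, one in the matrix and one in the cytosol. PGC-1 co-activators act with nuclear receptors such as ERRα on genes of oxidative metabolism, and are known for raising antioxidant genes in other cells. Dendritic cells also use reactive oxygen in antigen processing and in signalling.

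Library totals were 49.9 to 77.7 M counts. The labelled cell type was checked against markers: all 9 dendritic-like genes were detected with a summed level of 3688 to 5409 CPM (counts scaled to library size). All 9 macrophage-like genes were detected as well, at 2492 to 3648 CPM, so these markers do not set the cultures apart from macrophages. Erythroid-like genes summed to at most 0.192 CPM, and lymphocyte-like genes to at most 0.651 CPM. The targeted gene, *Ppargc1b*, measured 34.5 ± 1.94 CPM with the control hairpin and 19.4 ± 0.851 CPM with its own hairpin before IFN-β (SD, n = 3). In IFN-β-treated cells it measured 27.8 ± 3.93 and 18.7 ± 2.83 CPM. The log2 fold changes were -0.83 (edgeR adjusted p = 3.25e-05) and -0.57 (adjusted p = 0.000945), so the targeted transcript was reduced but present in every sh*Ppargc1b* library.

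To ask how abundant each enzyme's transcript was, counts were divided by the length of the merged exons (RPKM). In unstimulated shControl cells *Prdx1*, the main cytosolic peroxiredoxin, was highest at 630.9 ± 33.4 RPKM (SD, n = 3). *Gpx1*, the ubiquitous glutathione peroxidase, followed at 495.6 ± 22.7 RPKM. Peroxisomal catalase (*Cat*, 107.6 ± 3.76 RPKM), the uncoupling protein gene *Ucp2* (100.1 ± 5.59 RPKM) and *Prdx5* (86.8 ± 3.20 RPKM) formed a middle set. The ranges of *Cat* and *Ucp2* overlapped, at 105 to 111.9 and 94.9 to 106 RPKM. Matrix superoxide dismutase (*Sod2*, 32.4 ± 0.411 RPKM) and the lipid hydroperoxide reductase *Gpx4* (31.6 ± 1.05 RPKM) also overlapped in range. *Prdx3*, the matrix peroxiredoxin (17.67 ± 1.199 RPKM), cytosolic copper-zinc superoxide dismutase (*Sod1*, 9.48 ± 0.685 RPKM) and mitochondrial thioredoxin (*Txn2*, 6.998 ± 0.538 RPKM) were lowest.

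The first 2 places and the last did not depend on the length used, but the places between them did, except that of *Gpx4*. With the length of the principal transcript, an alternative chosen after seeing the data, *Prdx1* (837 RPKM) and *Gpx1* (666 RPKM) stayed first and *Txn2* (14.4 RPKM) last. *Sod1* moved most, from 9.48 to 58.7 RPKM and from rank 9 to rank 6, above *Gpx4* at 56.8 and *Sod2* at 55.3 RPKM.

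**Figure D1:**
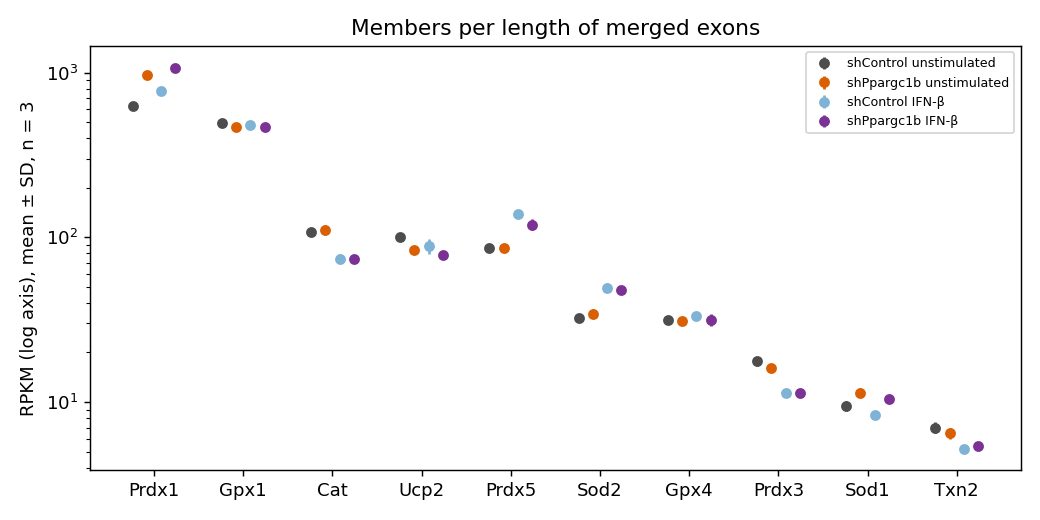
Level per length of merged exons of the 10 members in each group (vertical log axis, RPKM, mean ± SD over 3 libraries), ordered by the level in unstimulated shControl cells. *Prdx1* stands highest in all 4 groups, from 630.9 to 1063 RPKM, and *Txn2* lowest, from 5.21 to 6.998 RPKM.

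To ask how the members depend on PGC-1β at steady state, the unstimulated knockdown and control libraries were compared. *Prdx1* and *Sod1* rose, *Ucp2* fell, and the other 7 members did not pass the threshold of an adjusted p under 0.05. The 3 called members of 10 stood against 23.6% of all tested genes, and against 36.9% of genes with a mean log2 CPM of at least 4, a level that all 10 members reach. The members' share was therefore near the background. The 2 called cytosolic members were higher (12.4% of all genes were called higher) and the called mitochondrial member was lower (11.1% of all genes were called lower). The median log2 fold change was -0.11 over the mitochondrial and 0.04 over the cytosolic or peroxisomal members, beside -0.01 over all genes tested.

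*Prdx1* (ENSMUSG00000028691, chromosome 4, 116685544 to 116700822, plus strand, GRCm38) reduces hydrogen peroxide in the cytosol. Its level was 2033, 1891 and 1836 CPM in the 3 unstimulated shControl libraries and 2855, 3078 and 2942 CPM in the 3 unstimulated sh*Ppargc1b* libraries. The lowest knockdown library lay well above the highest control, a rise of 54.1% and a log2 fold change of 0.62 ± 0.05 (SE, edgeR adjusted p = 5.78e-07). After IFN-β *Prdx1* had 2337, 2470 and 2291 CPM in shControl against 3101, 3400 and 3200 CPM in sh*Ppargc1b* cells, again without overlap. The log2 fold change was 0.45 ± 0.05 (adjusted p = 1.41e-05). The rise held in each of the 3 runs of library codes, at 0.49 to 0.70 without and 0.41 to 0.48 with IFN-β. Of 100-base windows of its transcripts, 0.613% also occur in other annotated genes.

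*Sod1* (ENSMUSG00000022982, chromosome 16, 90220754 to 90226329, plus strand) encodes the dismutase of the cytosol and intermembrane space. It had 35.4, 36.9 and 40.6 CPM in the unstimulated control and 45.1, 42.5 and 48.4 CPM in unstimulated sh*Ppargc1b* libraries. The groups did not overlap, and the log2 fold change was 0.27 ± 0.06 (SE, edgeR adjusted p = 0.00357). With IFN-β the values were 33.3, 31.9 and 34.7 against 41.4, 40.8 and 42.5 CPM, a log2 fold change of 0.32 ± 0.06 (adjusted p = 0.00106). All 6 knockdown libraries of *Sod1* thus stood above all 6 control libraries. Its copper chaperone *Ccs* showed no call without or with IFN-β (0.02 and 0.07, adjusted p = 0.917 and 0.733).

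*Ucp2* (ENSMUSG00000033685, chromosome 7, 100493337 to 100502020, plus strand) encodes an inner membrane carrier that is thought to limit superoxide formation. It had 694.5, 663 and 740.6 CPM in the unstimulated control and 585.2, 555.8 and 613.7 CPM in unstimulated sh*Ppargc1b* libraries, again without overlap. The log2 fold change was -0.26 ± 0.07 (SE, edgeR adjusted p = 0.0121). The call was lost without shControl unstimulated replicate 3 (adjusted p = 0.0579) or sh*Ppargc1b* unstimulated replicate 2 (0.0587). The adjusted p ran from 5.28e-06 to 0.0587 under 19 alternatives. With IFN-β the shControl libraries had 634.2, 547.6 and 670.2 CPM and the sh*Ppargc1b* libraries 548.7, 514.6 and 577.8 CPM. Those groups overlapped through the second control library, and the log2 fold change of -0.17 ± 0.07 did not pass (adjusted p = 0.0789). It passed in 4 of 19 alternatives, among them the test of all genes with at least 1 count. It also passed without shControl IFN-β replicate 2 (-0.27, adjusted p = 0.00651) or without sh*Ppargc1b* IFN-β replicate 3 (0.0498). The last was the fit with the code runs as blocks (-0.17, adjusted p = 0.00184), where the 3 runs gave -0.21, -0.09 and -0.21. Over all alternatives the adjusted p was 0.00184 to 0.277. Exons of *Dnajb13* on the opposite strand share 305 bases with *Ucp2*, and how strand was set in counting is not given in the sources used here.

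**Figure D2:**
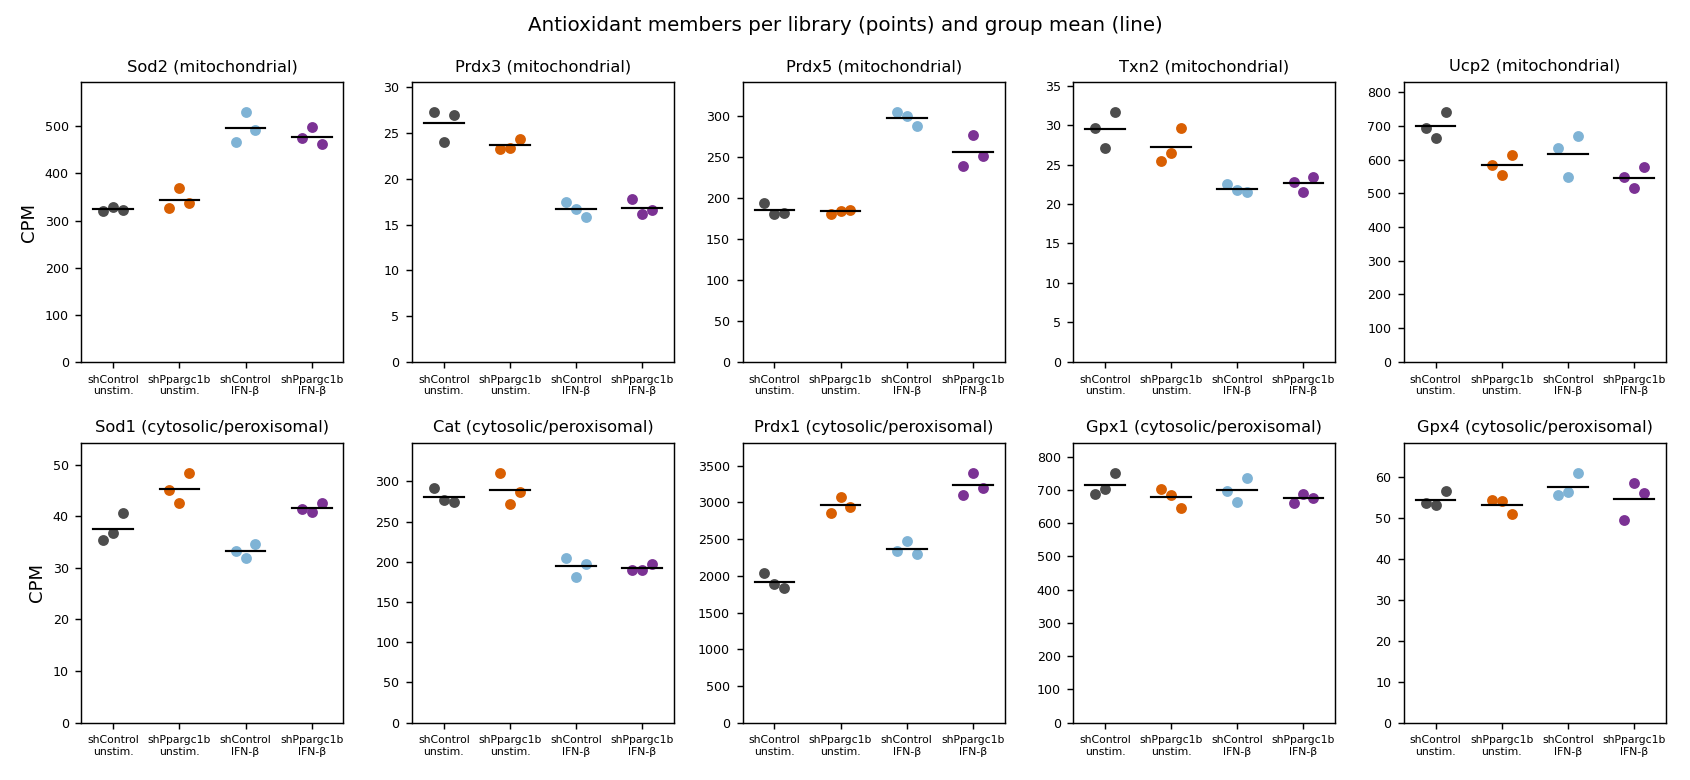
Level of each member in each of the 12 libraries (points, CPM on a linear axis from 0) with the group mean (line). *Prdx1* and *Sod1* are higher in all sh*Ppargc1b* libraries than in the shControl libraries of the same treatment, while *Gpx1* and *Gpx4* overlap between the hairpin groups of each treatment.

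The promoter windows of these 3 members are shown because they were the members called for the knockdown in unstimulated cells. They were also the 3 whose window held a match to the antioxidant response element, the site through which NRF2 acts. In the knockdown with IFN-β *Prdx5* was called and *Ucp2* was not, and the window of *Prdx5* held no match. Whether NRF2 acts at these matches was not tested. All 10 members had RefSeq windows of 300 bases (GRCm38.p6), 250 before and 50 after the transcription start. The motif searched was TGACNNNGC on both strands, and it occurred in 12.4% of all 32851 promoter windows. Capitals mark the match, which lies on the minus strand in each, at 133 to 125 bases before the start in *Prdx1* (chr4:116685349-116685648), 56 to 48 in *Sod1* (chr16:90220512-90220811) and 66 to 58 in *Ucp2* (chr7:100493108-100493407). All 3 windows are printed on the plus strand.
Prdx1: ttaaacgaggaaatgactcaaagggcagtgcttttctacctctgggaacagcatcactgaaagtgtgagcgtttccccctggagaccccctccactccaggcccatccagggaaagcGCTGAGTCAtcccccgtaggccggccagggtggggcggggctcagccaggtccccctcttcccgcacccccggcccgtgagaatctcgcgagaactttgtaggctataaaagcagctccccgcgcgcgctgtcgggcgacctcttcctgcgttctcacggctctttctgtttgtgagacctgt
Sod1: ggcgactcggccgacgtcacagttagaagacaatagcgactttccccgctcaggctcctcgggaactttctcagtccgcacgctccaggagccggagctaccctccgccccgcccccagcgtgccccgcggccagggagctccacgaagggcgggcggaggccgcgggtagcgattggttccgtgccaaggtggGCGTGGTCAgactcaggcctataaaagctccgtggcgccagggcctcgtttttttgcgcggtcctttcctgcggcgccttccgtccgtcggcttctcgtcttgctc
Ucp2: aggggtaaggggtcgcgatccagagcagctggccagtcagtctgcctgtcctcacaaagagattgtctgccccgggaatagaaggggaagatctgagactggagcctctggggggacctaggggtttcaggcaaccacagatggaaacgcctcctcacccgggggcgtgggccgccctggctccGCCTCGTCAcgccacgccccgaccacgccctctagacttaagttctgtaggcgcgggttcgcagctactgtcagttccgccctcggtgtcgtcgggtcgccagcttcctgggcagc

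The same letters were thus found in the windows of 2 members that rose and 1 that fell. No member's window matched the ERR motif TNAAGGTCA (1.28% of all windows), the NRF1 core GCGCATGCG (1.75%) or the NF-κB motif GGGANTTTC (1.11%). The ISRE core GAAANNGAA, bound by interferon-activated factors, was found in 8.56% of all windows and in 1 of the 4 windows of *Gpx4*, whose level did not pass in any comparison. No match says only that these letters are not in the window.

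The other mitochondrial members showed small knockdown effects at steady state. *Sod2* had 320.1 to 328.3 CPM in the unstimulated control and 327.3 to 368.5 CPM in the unstimulated knockdown (0.09, 95% interval -0.02 to 0.20). *Prdx3* had 24.1 to 27.3 against 23.3 to 24.3 CPM (-0.14, adjusted p = 0.124), and *Txn2* had 27.1 to 31.6 against 25.5 to 29.7 CPM (-0.11, adjusted p = 0.270). The 95% intervals were -0.28 to -0.01 for *Prdx3* and -0.26 to 0.03 for *Txn2*. *Prdx3* passed by a small margin when shControl unstimulated replicate 2 was left out (-0.20, adjusted p = 0.0499), and its adjusted p was 0.0499 to 0.504 over all alternatives.

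To ask whether the same members respond when the cells receive IFN-β, the knockdown was also compared within the treated groups. *Prdx1* and *Sod1* were again higher, with the values above, and *Prdx5* was lower. The 3 called members of 10 stood against 24.2% of all tested genes and 38.2% of abundant genes, with 11.5% of all genes called higher and 12.7% lower. *Prdx5* (ENSMUSG00000024953, chromosome 19, 6906697 to 6910106, minus strand) encodes a peroxiredoxin found in mitochondria, peroxisomes and the cytosol. It had 304.8, 299.9 and 288.5 CPM in IFN-β-treated shControl and 238.8, 277 and 251.8 CPM in IFN-β-treated sh*Ppargc1b* libraries. The groups did not overlap, and the log2 fold change was -0.22 ± 0.05 (SE, edgeR adjusted p = 0.00429). In unstimulated cells the same gene had 181.1 to 193.5 and 180.8 to 186 CPM (-0.01, adjusted p = 0.879). The exons of *Prdx5* share 409 bases with *Trmt112* on the opposite strand, and 12.3% of its windows lie in that gene.

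With IFN-β the knockdown effect of *Sod2* was -0.05 (95% interval -0.17 to 0.06), that of *Prdx3* 0.01 (-0.13 to 0.15) and that of *Txn2* 0.04 (-0.10 to 0.19). *Cat* (ENSMUSG00000027187, chromosome 2, 103453849 to 103485160, minus strand) had knockdown effects of 0.04 without and -0.01 with IFN-β (adjusted p = 0.630 and 0.882). The 95% intervals were -0.07 to 0.16 and -0.13 to 0.10. The glutathione peroxidases were the most even members. *Gpx1* (ENSMUSG00000063856, chromosome 9, 108338903 to 108340343, plus strand) ranged from 645.3 to 750.9 CPM and *Gpx4* (ENSMUSG00000075706, chromosome 10, 80047166 to 80056439, plus strand) from 49.4 to 61.0 CPM over all 12 libraries. Gene-level counts do not separate the mitochondrial and cytosolic products of *Gpx4*, and 25.2% of its windows also occur in other genes, chiefly the pseudogene *Gpx4-ps2*.

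Markers of culture composition moved with the hairpin and with IFN-β, and their part in these results was not tested. Of 9 dendritic-like genes, 5 were higher without and 6 with IFN-β in sh*Ppargc1b* cells, and their sum went from 3688 to 4319 CPM in unstimulated shControl to 4362 to 4962 CPM in unstimulated sh*Ppargc1b* libraries. Of 9 macrophage-like genes, 3 were lower without and 4 with IFN-β, with sums of 2725 to 2866 against 2492 to 2549 CPM in unstimulated cells. Of 8 neutrophil-like genes 1 was higher, with sums of 45.4 to 83.0 against 82.7 to 137.3 CPM, and of 6 tested mast cell or basophil-like genes 2 were higher, with sums of 8.59 to 17.0 against 22.1 to 25.7 CPM. None of 5 eosinophil-like genes passed, at 33.5 to 63.9 against 23.5 to 44.6 CPM, and 1 of 8 proliferation genes was lower. IFN-β in shControl cells raised 5 and lowered 0 of 9 macrophage-like genes, beside 23.7% of all tested genes called higher. Their sums were 3422 to 3648 CPM, against 2725 to 2866 CPM in unstimulated shControl libraries. Of 9 dendritic-like genes IFN-β raised 2 and lowered 1. In such bulk libraries fewer cells of a type and less RNA per cell cannot be told apart.

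To ask how IFN-β acts on these enzymes, treated and unstimulated shControl cells were compared. The treatment moved 8 of 10 members, beside 48.2% of all tested genes and 67.4% of abundant genes. *Sod2*, *Prdx5* and *Prdx1* rose (23.7% of all genes were called higher), and *Prdx3*, *Cat*, *Txn2*, *Sod1* and *Ucp2* fell (24.6% were called lower). All 5 mitochondrial members were called, 2 higher and 3 lower. In sh*Ppargc1b* cells 5 of 10 members passed, *Sod2* and *Prdx5* higher and *Cat*, *Prdx3* and *Txn2* lower. This stood beside 42.6% of all and 61.5% of abundant genes (21.4% higher and 21.2% lower). With the runs of library codes fitted as blocks 8 members passed with each hairpin, and with library totals alone 9. With library totals as the only scaling the split of all calls turned toward falls, with 2598 of 10892 higher in shControl and 2340 of 9891 in sh*Ppargc1b* cells, against 4312 of 8793 and 3895 of 7760 with TMM. These comparisons share libraries with the knockdown comparisons above.

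*Sod2* (ENSMUSG00000006818, chromosome 17, 13006846 to 13040063, plus strand) encodes the manganese dismutase of the matrix and is a known target of NF-κB. It went from 320.1, 328.3 and 323 CPM in unstimulated to 465.7, 529.8 and 493.1 CPM in IFN-β-treated shControl libraries. In sh*Ppargc1b* cells it went from 327.3, 368.5 and 337 to 474.4, 497.9 and 462.2 CPM. Every treated library lay above every unstimulated one. The log2 fold changes were 0.62 ± 0.05 (SE, edgeR adjusted p = 9.88e-08) and 0.47 ± 0.05 (adjusted p = 2.67e-06). Of its windows, 12.8% also occur in other annotated genes.

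*Prdx5* had 193.5, 181.1 and 182.4 CPM in unstimulated shControl libraries and 304.8, 299.9 and 288.5 CPM after IFN-β, the largest rise among the members at 60.4% (log2 fold change 0.68 ± 0.05, edgeR adjusted p = 1.44e-08). The rise in sh*Ppargc1b* cells was 39.3% (0.48 ± 0.05, adjusted p = 1.22e-06).

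The matrix peroxiredoxin *Prdx3* (ENSMUSG00000024997, chromosome 19, 60864051 to 60874556, minus strand) moved the opposite way. It had 27.3, 24.1 and 27.0 CPM in unstimulated and 17.5, 16.8 and 15.9 CPM in IFN-β-treated shControl libraries, a log2 fold change of -0.65 ± 0.06 (SE, edgeR adjusted p = 5.3e-07). In sh*Ppargc1b* cells it went from 23.3, 23.4 and 24.3 to 17.8, 16.1 and 16.7 CPM (-0.49 ± 0.06, adjusted p = 1.44e-05). No treated library reached the lowest unstimulated one.

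*Txn2* (ENSMUSG00000005354, chromosome 15, 77915047 to 77929006, minus strand) encodes the thioredoxin that reduces the *Prdx3* product, and it fell as *Prdx3* did. Its values were 29.6, 27.1 and 31.6 CPM in unstimulated and 22.6, 21.8 and 21.5 CPM in IFN-β-treated shControl libraries (-0.43 ± 0.07, edgeR adjusted p = 9.48e-05). The log2 fold change in sh*Ppargc1b* cells was -0.27 ± 0.07 (adjusted p = 0.00503).

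*Cat* fell in both hairpin groups, from 292.3, 276.4 and 274.4 to 204.6, 181.6 and 197.1 CPM in shControl and from 310.3, 271.8 and 286.7 to 189.6, 190.2 and 197.7 CPM in sh*Ppargc1b* libraries. The log2 fold changes were -0.53 ± 0.05 and -0.59 ± 0.05 (SE, edgeR adjusted p = 5.82e-07 and 2.4e-07). Among the cytosolic or peroxisomal members this was the largest IFN-β effect.

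The remaining IFN-β effects were smaller and depended on the settings. *Prdx1* rose by 23.2% in shControl cells (0.30 ± 0.05, edgeR adjusted p = 0.000149), but with library totals as the only scaling the value was 0.06 (adjusted p = 0.279). For *Prdx1* the change in sh*Ppargc1b* cells was 0.13 ± 0.05 (adjusted p = 0.0558), with values from 0.0212 to 0.198 over 19 alternatives, of which 8 passed and library totals alone gave -0.08. It passed without shControl unstimulated replicate 1 (0.0408), shControl IFN-β replicate 2 (0.0471), sh*Ppargc1b* IFN-β replicate 1 (0.0320) or sh*Ppargc1b* unstimulated replicate 2 (0.0353).

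*Sod1* fell in shControl cells by 11.5% (-0.18 ± 0.06, edgeR adjusted p = 0.0241), and the call did not hold when shControl unstimulated replicate 3 (0.0877), shControl IFN-β replicate 1 (0.0823) or shControl IFN-β replicate 2 (0.157) was left out. Its adjusted p over all alternatives was 3.58e-05 to 0.157. *Ucp2* changed by -0.18 ± 0.07 (adjusted p = 0.0406), its groups overlapped, and 8 of 19 alternatives lost the call. Without shControl IFN-β replicate 2 its value was -0.08 (adjusted p = 0.333), and it was also lost without shControl unstimulated replicate 3 (0.115), shControl IFN-β replicate 1 (0.0826) or any 1 of the sh*Ppargc1b* IFN-β libraries (0.0546 to 0.0784). Its adjusted p lay between 0.000108 and 0.333 in all settings tried. In sh*Ppargc1b* cells *Sod1* and *Ucp2* changed by -0.13 and -0.10 (adjusted p = 0.106 and 0.286). When the code runs were fitted as blocks, *Sod1*, *Ucp2* and *Prdx1* all passed in these cells (adjusted p = 0.0348, 0.0372 and 0.0212).

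*Gpx1* changed by -0.03 and *Gpx4* by 0.08 in shControl cells (edgeR adjusted p = 0.625 and 0.288). With library totals alone, which moved the median of all genes to -0.27 in control and -0.22 in knockdown cells, *Gpx1* passed at -0.27 (0.000157) and *Gpx4* at -0.16 (0.0243). TMM scaling factors ran from 1.07 to 1.09 without and from 0.914 to 0.941 with IFN-β, so the scaling moved every IFN-β effect by a like amount.

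**Figure D3:**
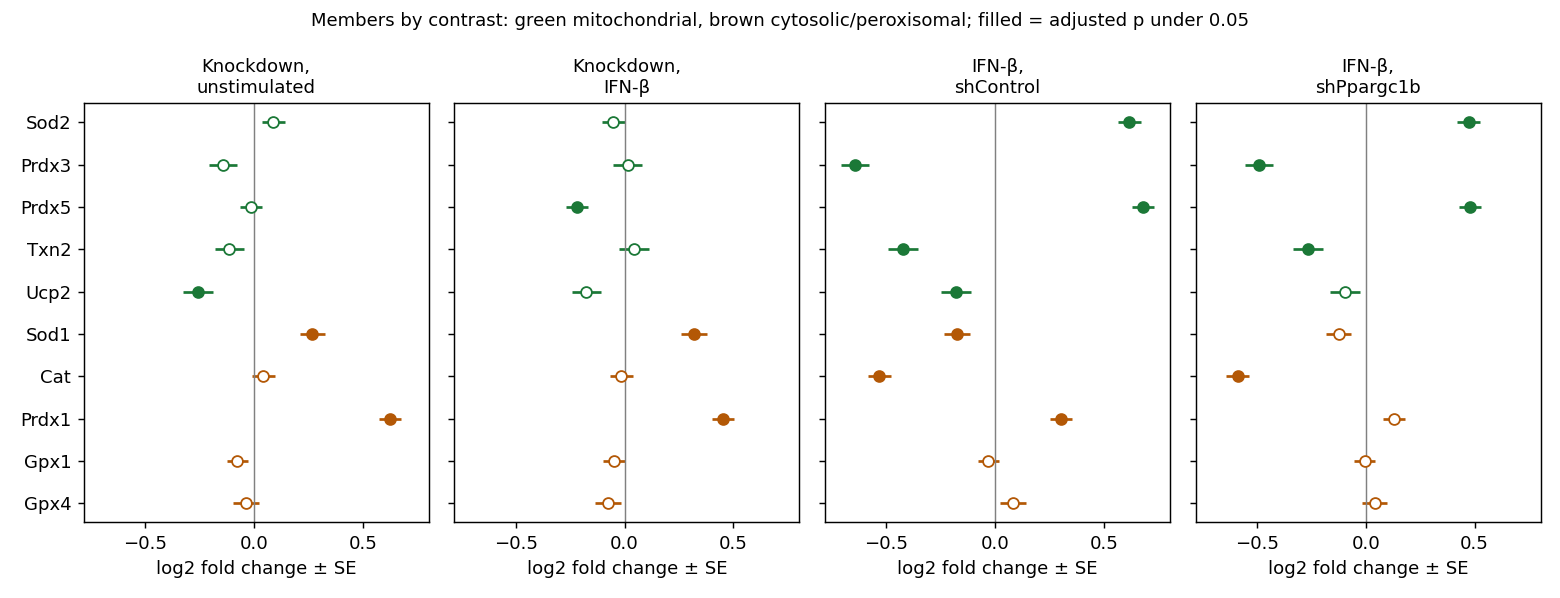
Log2 fold change ± SE of each member in the 4 comparisons, with mitochondrial members in green, cytosolic or peroxisomal members in brown, and filled points past an adjusted p of 0.05. In the knockdown panels the filled green points lie below 0 (*Ucp2* at -0.26, *Prdx5* at -0.22) and the filled brown points above 0, while IFN-β moved mitochondrial members in both directions, from -0.65 to 0.68 in shControl cells.

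The difference between both knockdown effects (the interaction) was tested for each member. By edgeR 0 of 10 members passed, 2 had an unadjusted p under 0.05, and by DESeq2 0 passed, beside 0.73% of all tested and 1.61% of abundant genes by edgeR. The interaction of *Prdx5* was -0.20 (95% interval -0.35 to -0.05, edgeR adjusted p = 0.253). It passed at -0.28 without sh*Ppargc1b* IFN-β replicate 2 (adjusted p = 0.0322), within a range of 0.0322 to 0.559. The interaction of *Prdx1* was -0.17 (-0.33 to -0.02, adjusted p = 0.405). The knockdown effects of *Prdx5*, *Ucp2* and *Prdx1* are therefore not shown to differ between the treatments.

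Both compartments were then set side by side in each library. The mean log2 CPM of the 5 mitochondrial members minus that of the 5 others was -0.896, -0.962 and -0.909 in unstimulated shControl and -1.244, -1.163 and -1.119 in unstimulated sh*Ppargc1b* libraries. With IFN-β it was -0.822, -0.814 and -0.886 in shControl and -0.995, -1.085 and -1.055 in sh*Ppargc1b* libraries. All 3 knockdown libraries lay below all 3 controls in each treatment, and the group means differed by -0.25 without and -0.20 with IFN-β (sh*Ppargc1b* minus shControl). These differences are a description without a test. Without *Prdx1*, an alternative chosen after seeing the data, they were -0.14 and -0.12. With the members of more than 1 compartment left out they were -0.44 and -0.26. That setting leaves only *Cat* and *Prdx1* in the cytosolic or peroxisomal class, so *Prdx1* weighs more in it than among 5 members.

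Enzyme pairs showed the same data as ratios of CPM, which is not divided by transcript length. These ratios thus compare the groups, and not the levels of both genes of a pair. *Prdx1* to *Prdx3* was 73.7 ± 5.34 in unstimulated control and 125.1 ± 5.72 in unstimulated sh*Ppargc1b* cells, and after IFN-β it was 141.8 ± 7.31 in shControl and 192.5 ± 18.3 in knockdown cells (SD, n = 3). These groups did not overlap. *Sod2* to *Sod1* was 8.64 ± 0.599, 7.63 ± 0.907, 14.95 ± 1.47 and 11.5 ± 0.678 in the same order, with an overlap between both unstimulated groups and none between both treated groups. *Txn2* to the cytosolic thioredoxin *Txn1* was 0.181 ± 0.0161, 0.158 ± 0.00756, 0.0945 ± 0.00248 and 0.101 ± 0.00695. Its libraries did not overlap between the treatments, nor between the hairpins without IFN-β, and did overlap between the hairpins with it. *Txn1* itself rose with IFN-β by 0.51 (edgeR adjusted p = 1.01e-07) in shControl cells, while *Txn2* fell.

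**Figure D4:**
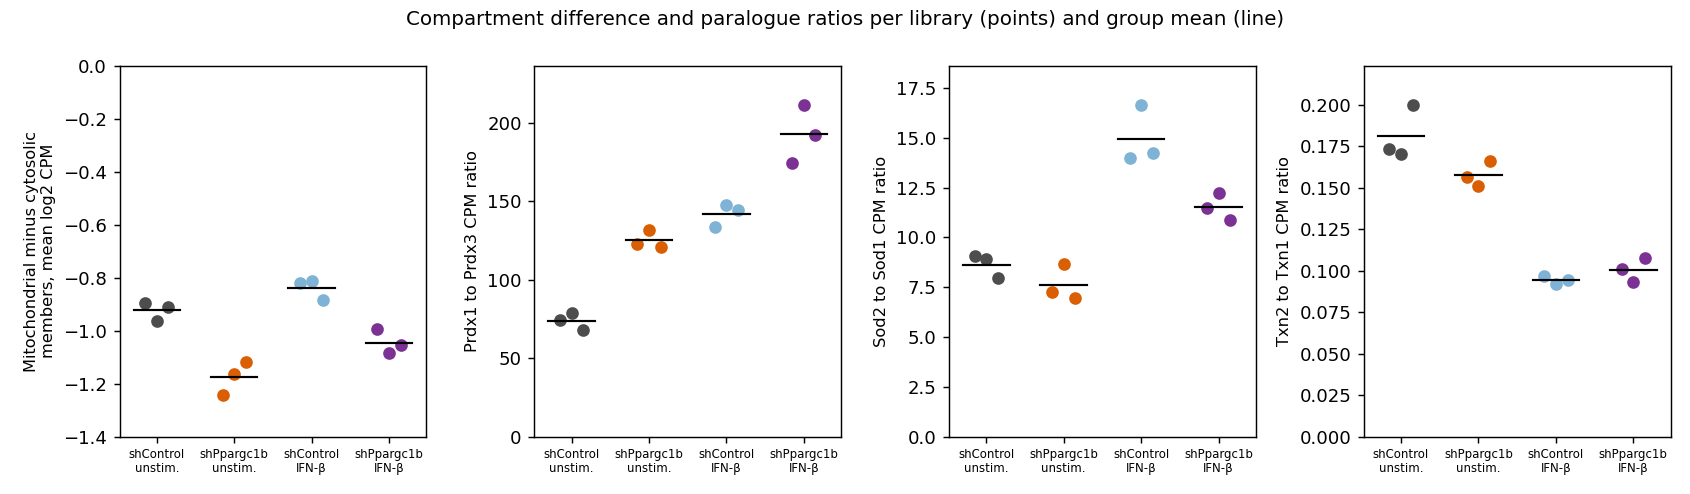
Mean log2 CPM of mitochondrial minus cytosolic or peroxisomal members, and CPM ratios of 3 enzyme pairs, in each library (points) with the group mean (line). The compartment difference is lower in sh*Ppargc1b* libraries in both treatments, and the *Prdx1* to *Prdx3* ratio runs from 67.97 to 78.5 in unstimulated shControl up to 174.4 to 210.9 in IFN-β-treated sh*Ppargc1b* libraries.

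The patterns of members whose group means spanned at least 0.5 on the log2 scale were compared with 8770 genes over 12 libraries, by the root mean square (RMS) difference of centred log2 CPM. The genes most like *Sod2* were *Rpe* (0.0354), *Tmem30a* (0.0396) and *Cggbp1* (0.0457). Those most like *Prdx3* were *Acadm* (0.0627), *Hspa9* (0.0636) and *Cdc23* (0.0668), of which *Acadm* and *Hspa9* encode mitochondrial proteins. For *Prdx5* they were *Tbk1* (0.0516), *Fxr1* (0.0549) and *Rnf14* (0.0565), for *Cat* *Smarca2* (0.0595), *Ankrd46* (0.0612) and *Cilk1* (0.0665), and for *Prdx1* *Peak1* (0.0755), *Dusp16* (0.0782) and *Lasp1* (0.0825). No member was among another's 3 nearest. The spans of *Sod1* (0.45), *Txn2* (0.42), *Ucp2* (0.36), *Gpx4* (0.12) and *Gpx1* (0.08) were smaller and were not compared.

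The members were set against the enzymes that work with them. All counts of such lists stand beside 23.6% of tested genes called without IFN-β (12.4% higher, 11.1% lower) and 24.2% with it (11.5% higher, 12.7% lower), and nothing particular to a list is drawn from them. Of 7 other peroxiredoxin and repair genes, 2 rose and 2 fell in unstimulated sh*Ppargc1b* cells, and 1 rose and 4 fell with IFN-β. *Prdx6*, a peroxiredoxin that also has phospholipase activity, rose by 0.79 and 0.54 (edgeR adjusted p = 2.11e-05 and 0.000548), from 173.4 ± 13.3 to 299.1 ± 6.85 CPM in unstimulated cells (SD, n = 3). *Prdx2*, another cytosolic peroxiredoxin, fell (-0.16 and -0.25, adjusted p = 0.00632 and 0.000198). Cytosolic peroxiredoxins thus did not move as one group. *Srxn1*, which repairs overoxidised peroxiredoxin, did not pass in unstimulated cells (0.04) and was lower with IFN-β (-0.22, adjusted p = 0.00678).

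In the thioredoxin system, with 9 genes tested, 2 rose and 1 fell without IFN-β and 3 rose and 1 fell with it. *Txnrd1*, the cytosolic thioredoxin reductase, rose by 0.41 and 0.22 (edgeR adjusted p = 6.39e-05 and 0.011). Its mitochondrial counterpart *Txnrd2* changed by -0.08 and -0.21 (adjusted p = 0.558 and 0.0815), and IFN-β lowered it in shControl cells (-0.50, adjusted p = 9.41e-05). *Txnip*, an inhibitor of thioredoxin, fell in both treatments (-0.25 and -0.23). *Txndc17* was at 0.09 without IFN-β (adjusted p = 0.171) and rose with it (0.23).

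Of 19 tested glutathione genes, 5 rose and 3 fell in each treatment of the knockdown. IFN-β in shControl cells raised 1 and lowered 12, beside 23.7% of all tested genes called higher and 24.6% called lower. *Slc7a11*, which imports cystine for glutathione synthesis, rose by 0.60 and 0.52 (edgeR adjusted p = 2.37e-06 and 1.12e-05). The plasma glutathione peroxidase *Gpx3* fell (-1.05 and -0.92), from 24.4 ± 1.47 to 11.8 ± 2.36 CPM in unstimulated cells (SD, n = 3), whereas *Gpx1* and *Gpx4* did not pass. Glutathione reductase (*Gsr*) did not pass in the knockdown (0.06 and 0.00) and fell with IFN-β (-0.34). IFN-β raised *Glrx*, the cytosolic glutaredoxin, by 1.01 and lowered the mitochondrial *Glrx5* (-0.86).

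Sources of NADPH, the reductant behind both systems, moved both ways: of 9 tested genes 2 rose and 3 fell without and 1 rose and 3 fell with IFN-β. The mitochondrial malic enzyme *Me2* fell (-0.55 and -0.65) and the cytosolic *Me1* rose (0.49 and 0.46, edgeR adjusted p = 0.026 and 0.0385). *Idh1*, the cytosolic isocitrate dehydrogenase, fell (-0.48 and -0.38). *Nnt*, the NADPH-forming transhydrogenase of the inner membrane, had 107 to 190 counts per library and did not pass (-0.19 and -0.17). The extracellular dismutase *Sod3* rose from 0.587 ± 0.113 to 2.03 ± 0.260 CPM in unstimulated cells (log2 fold change 1.78, adjusted p = 2.34e-05), at a level far below those of *Sod1* and *Sod2*.

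Of 16 genes of selenoproteins and of selenocysteine insertion, 2 rose and 3 fell without and 1 rose and 4 fell with IFN-β. Among those that fell was *Selenop* (-0.85 and -0.68). Of 17 peroxisome genes, the compartment of catalase, 2 passed in each treatment, all lower, a share near that of all genes called lower. Of 5 tested uncoupling protein and carrier genes 2 passed in each treatment, the adenine nucleotide translocases *Slc25a5* (-0.20 and -0.22) and *Slc25a4* (-0.16 and -0.15). Of 13 other redox enzymes, 2 rose and 5 fell without and 2 rose and 6 fell with IFN-β. *Nqo1*, a quinone reductase and known NRF2 target, rose by 0.70 and 0.67 (edgeR adjusted p = 1.3e-07 and 2.79e-07), and *Hmox1* was at 0.04 without IFN-β (adjusted p = 0.892) and lower with it (-0.46, adjusted p = 0.0499). Of 17 tested regulators, 4 rose and 7 fell without and 4 rose and 6 fell with IFN-β. *Nfe2l2*, which encodes NRF2 and is named here after its values were seen, rose by 0.33 and 0.28 (adjusted p = 1.19e-05 and 5.06e-05). *Esrra*, which encodes ERRα, fell in both treatments (-0.21 and -0.34, adjusted p = 0.00241 and 3.32e-05). *Pparg* fell without IFN-β (-0.52) and was at -0.15 with it (adjusted p = 0.315).

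The rule for named genes also picked genes that are given here by their knockdown log2 fold changes without and then with IFN-β. Those past the threshold in both treatments were *Gclc* (0.51 and 0.37), *Hif1a* (0.37 and 0.31), *Txnl1* (0.22 and 0.15), *Sesn1* (-0.34 and -0.23), *Selenok* (-0.25 and -0.43), *Mgst3* (-0.61 and -0.36), *Nqo2* (-0.53 and -0.38) and *Aifm2* (-0.46 and -0.65). *Prdx4* (0.39 and 0.11), *Selenom* (0.49 and 0.36) and *Scp2* (-0.16 and -0.15) passed without IFN-β, and *Sesn3* (-0.19 and -0.24), *Selenoh* (-0.14 and -0.57) and *Pprc1* (0.21 and 0.47) passed with it. None of these genes is thereby shown to differ between the treatments. *Gclc* is the catalytic subunit of the first enzyme of glutathione synthesis, and *Aifm2* encodes FSP1, a suppressor of lipid peroxidation like *Gpx4*.

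IFN-β also moved the partner genes, beside 48.2% of all tested genes. In shControl cells the peroxiredoxin and repair list gave 4 rises and 1 fall of 7, led by *Sesn1* (-0.71), *Prdx6* (0.65) and *Sesn3* (0.57), and the thioredoxin list 4 rises and 3 falls of 9, with *Nxn* at -0.33. In the list of selenoproteins and selenocysteine insertion 7 of 16 rose and 6 fell. *Selenow* was at 1.75, *Selenot* at 0.92 and the selenocysteine synthesis kinase *Pstk* at -0.91. *Hmox2* (1.02), *Msrb2* (0.72) and *Aifm2* (0.58) rose, *Keap1*, the repressor of NRF2, rose (1.02), and *Pparg* (-1.31) and *Pprc1* (-0.67) fell. Of 17 peroxisome genes 2 rose and 7 fell, with *Acaa1a* at 0.83 and *Pex3* at -0.40, beside the fall of *Cat*. *Idh1* (-0.81), *Me2* (-0.40), *Idh2* (-0.37), *Mgst2* (-0.75), *Slc25a4* (-0.33) and *Slc25a30* (-0.24) fell as well. With library totals as the only scaling the median of all genes was -0.27 in this comparison, so rises of that size depend on the scaling.

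The members were last set beside 13 nuclear genes, called electron transport genes here. Among them *Atp5a1* and *Atp5b* encode ATP synthase subunits. The others belong to electron transport, the process whose by-product the members remove. All 13 genes of this list were lower in unstimulated sh*Ppargc1b* cells, with a median log2 fold change of -0.38. With IFN-β 12 of 13 were lower, with a median of -0.35. *Sdha* (-0.53), *Atp5b* (-0.51) and *Atp5a1* (-0.48) fell most without IFN-β. The 5 mitochondrial antioxidant members had 1 call in each treatment and medians of -0.11 and -0.05. The whole range of the mitochondrial members without IFN-β was -0.26 to 0.09, beside -0.53 to -0.16 for the electron transport genes. Under IFN-β in shControl cells the electron transport genes gave 1 rise and 3 falls of 13 (*Cyc1* -0.21, *Ndufs1* -0.20 and *Uqcrc1* -0.16), within -0.21 to 0.16, and the mitochondrial antioxidants spread from -0.65 to 0.68. These lists were chosen with earlier results known and their difference was not tested.

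**Figure D5:**
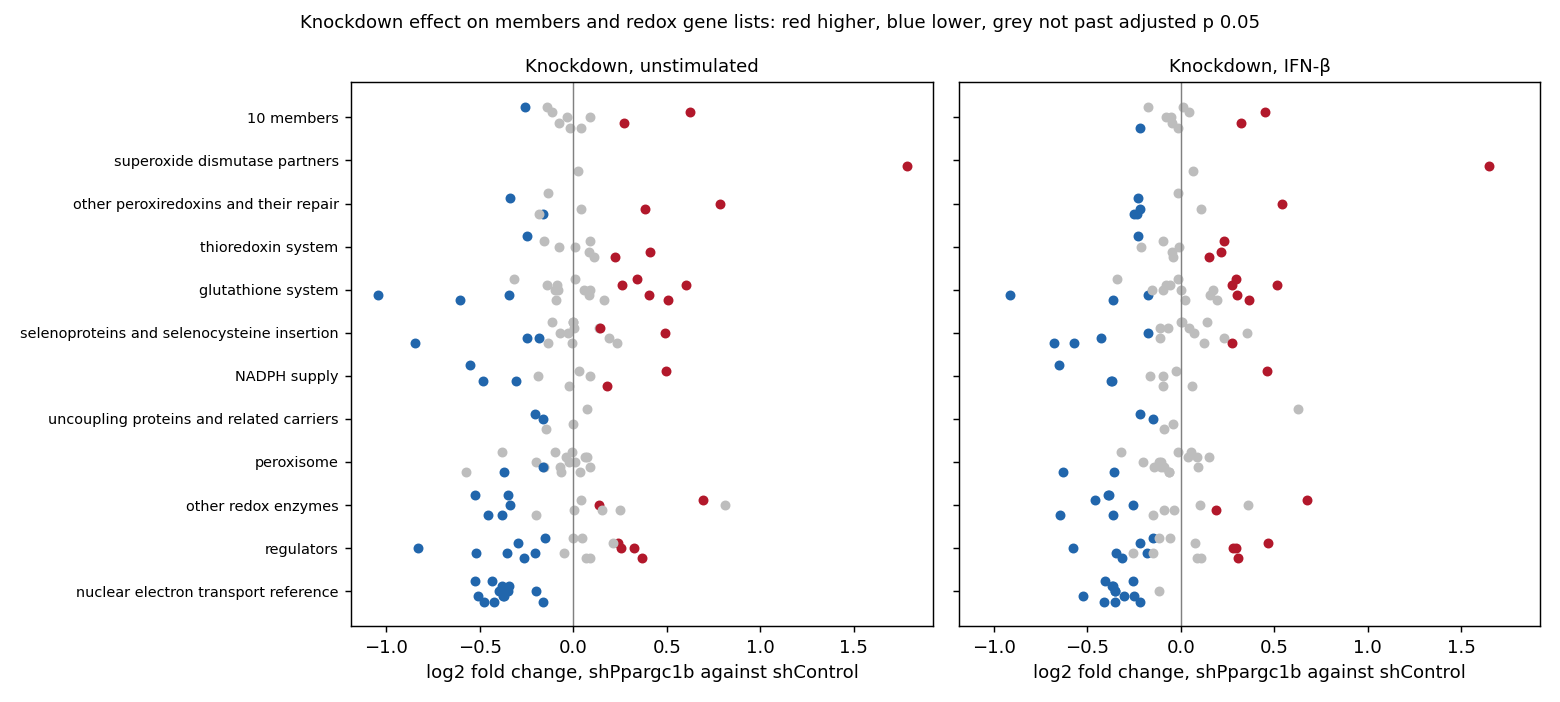
Log2 fold change of sh*Ppargc1b* against shControl for the 10 members and the tested genes of 11 lists (1 point a gene), without IFN-β (left) and with it (right). Red and blue points passed an adjusted p of 0.05. The electron transport list, which includes ATP synthase genes, lies to the left of 0, from -0.53 to -0.16 without IFN-β. The members lie on both sides.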

How the data were processed

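The deposited values were raw counts per GENCODE gene in 12 libraries, which the authors made without normalization or pooling. Per the labels, ribosomal RNA was removed from total RNA, adapters were trimmed with Trim Galore 0.6.0, and STAR 2.7.8a mapped the reads to GRCm38 (mm10). Uniquely mapped read pairs were counted by STAR, so sequence shared between genes is undercounted. The strand setting was not given in the sources used here. Library totals of 49.9 to 77.7 M counts left the spread between libraries, not depth, as the main error.

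Genes were filtered with filterByExpr (minimum count 10, minimum total 15), scaled by TMM and fitted with 1 mean per group over all 12 libraries in edgeR 4.0.16 (R 4.3.3). Quasi-likelihood F-tests gave p-values adjusted by Benjamini-Hochberg over 18228 genes, with a threshold of 0.05. CPM used TMM-scaled totals and log2 CPM a prior count of 2. RPKM used exon lengths of GENCODE M21 on GRCm38. An exact two-sided permutation test of 3 against 3 libraries cannot give a p below 0.1. Alternatives were RLE scaling, library totals, DESeq2 1.42.0, other filters, fewer groups, a block for runs of library codes, and leaving out each library. Genes other than members, apart from some not reported here, were named by rule: fixed partners, up to 3 with the largest change among those past the threshold per list and comparison, and the 3 nearest patterns per member. Members and lists were chosen with earlier results of these data known. Promoter windows were RefSeq's, and protein sequences were not used here.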

Additional observations from a re-analysis of the deposited data

How the results depend on the processing

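The labels number no replicates and state no pairing, and the replicate numbers used here only name libraries. Library codes fall in 3 runs of 4, 1 library of each group in a run, and a block for each run was tried as an alternative. Whether a run is a shared culture or batch is not given in the sources used here. The calls of *Prdx1* and *Sod1* in both knockdown comparisons, of *Prdx5* in the knockdown with IFN-β, and of *Sod2*, *Prdx3*, *Prdx5*, *Txn2* and *Cat* in both IFN-β comparisons held under all alternatives run. Of 940 values of single members under alternatives, 876 kept direction and side of the threshold, 20 passed in addition, 14 were lost and 30 changed sign, and the causes were not tested. Fitting only the groups of a contrast gives no separate value for the interaction, which uses all 4. The lowest count of a member in a library was 810 reads, for *Prdx3* after IFN-β, and SEs of members' log2 fold changes in the 4 comparisons ran from 0.048 to 0.07.

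The count of members past the threshold for IFN-β in sh*Ppargc1b* cells was 5, and became 9 with library totals alone and 8 with the block. The interaction called 0 members, and 0 to 1 with libraries left out. Over all genes the interaction gave 133 calls, 84 with library totals, 525 with all genes of at least 1 count, 425 with the block, 452 with DESeq2, and 36 to 271 when 1 library was left out. With members of more than 1 compartment left out, only *Cat* and *Prdx1* stayed in the cytosolic or peroxisomal class. The compartment difference then moved to -0.44 and -0.26 for the knockdown without and with IFN-β, against -0.25 and -0.20. For IFN-β in shControl it moved to -0.043, against 0.08. Without *Ucp2* the last was 0.13. Without *Prdx1*, chosen after seeing the data, the 3 values were -0.14, -0.12 and 0.18.

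Signs turned for members near 0 or under another scaling. With library totals alone *Cat* was 0.008 for the knockdown with IFN-β, and the IFN-β effect of *Gpx4* was -0.159 in control and -0.164 in knockdown cells, where *Prdx1* was at -0.075. Testing all genes with a count gave 0.006 for *Prdx5* in the unstimulated knockdown, and fitting only the 2 groups 0.005 for *Cat* with IFN-β. For IFN-β in sh*Ppargc1b* cells *Gpx1* was 0.004 with RLE, 0.004 with DESeq2 and 0.001 with the CPM filter. With 1 library left out, the ranges of the members that changed sign were, in the knockdown without IFN-β, -0.031 to 0.016 for *Prdx5* and -0.008 to 0.086 for *Cat*, and with IFN-β -0.039 to 0.036 for *Prdx3* and -0.077 to 0.012 for *Cat*. For IFN-β in shControl *Gpx1* ranged from -0.074 to 0.025, and in sh*Ppargc1b* cells *Gpx1* from -0.038 to 0.026 and *Gpx4* from -0.006 to 0.11. For the interaction *Ucp2* ranged from -0.013 to 0.138, *Cat* from -0.121 to 0.014, *Gpx1* from -0.026 to 0.074 and *Gpx4* from -0.105 to 0.011.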
